A study of Mus musculus with 16 samples.

Results

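The interferon-inducible GTPases described here are 9 mouse genes, 4 guanylate-binding proteins (Gbp2, Gbp3, Gbp4 and Gbp6) and 5 immunity-related GTPases (Iigp1, Irgm1, Irgm2, Igtp and Ifi47). Members were chosen by name, through the symbols and synonyms in the array files. The 9 genes were carried by 11 probes, and they are 9 of the 17465 genes and other named features that were tested. Every member had a probe well above background on all 16 arrays, so none was lost to the filter on dim probes. Array symbols are old in this family: the probe called Gbp4 in the files carries the RefSeq accession of Gbp3, and Gbp4, Gbp6, Irgm1 and Irgm2 were listed as Mpa2, Mpa2l, Irgm and Iigp2. Irgm1 had 3 probes, of which 1 was not used because it was above background on 0 of 16 arrays.

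Interferon-inducible GTPases are large GTP-binding proteins that cells make in response to interferon-gamma and, to differing degrees, type I interferons. Receptor signalling through JAK kinases acts on gamma-activated sites and interferon-response elements near their gene starts, and factors such as IRF1 add to it. Guanylate-binding proteins coat vacuoles that hold bacteria or parasites and bring lipopolysaccharide from bacterial membranes into reach of inflammatory caspases. Among the immunity-related GTPases, Irgm1, Irgm2 and Igtp are regulators that sit on the cell's own membranes, and Iigp1 and Ifi47 are effectors that load onto vacuoles of intracellular parasites. In macrophages these proteins are best known for defence against intracellular pathogens.

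Cells were peritoneal macrophages of male mice of the strain labelled BALB/cByJ-Lpin1fld/J, taken after 2 h of adherence to plastic and the removal of floating cells. The 4 groups were control untreated, control LPS, fld untreated and fld LPS, with 4 arrays in each. Control mice were heterozygotes, which carry 1 mutant copy of Lpin1, and fld mice were the mutants that give the strain its name (fatty liver dystrophy). Lpin1 encodes lipin-1, an enzyme that makes diacylglycerol from phosphatidic acid. LPS, a bacterial ligand of TLR4, was given at 100 ng/ml over 5 h in medium without serum, and untreated cells had the same medium. No label names mice by number, so if arrays of a group came from the same mice, p-values measure technical spread only. In these bulk samples, fewer cells of a type and less RNA per cell cannot be told apart.

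Levels are log2 processed intensities minus the 75th percentile of the same array, so a level of 0 is the brightness of the 75th percentile spot, and a difference of 1 is a doubling. Between 58.7% and 65.4% of spots were well above background, and replicate arrays correlated at 0.961 to 0.993 across features. The 75th percentile itself lay between 189 and 627 intensity units and was lowest on fld LPS replicates 4 (189) and 2 (251). All 4 arrays of a group lay on 1 slide of their own, and the slide and the group cannot be told apart. Of 4 Lpin1 probes, 2 were well above background on 0 of the 6 arrays of fld replicates 1 to 3 and another on 1 of 6. The brightest probe was well above background on all 6, at -2.15 to -1.40, beside -1.81 to -1.30 on the control arrays. All 4 probes were well above background on the 8 control arrays and on both arrays labelled fld replicate 4. Those 2 arrays therefore go against their label, the groups are called by their labels throughout, and results were also computed without them. All 10 listed macrophage markers were kept, and Adgre1 (F4/80) and Csf1r were well above background on 16 of 16 arrays. All 9 listed B cell markers were also kept.

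The members lie in clusters of related genes. In the RefSeq order, Gbp5, Gbp7, Gbp3, Gbp2b and Gbp2 follow each other on chromosome 3, Gbp8, Gbp9, Gbp4, Gbp10 and Gbp6 on chromosome 5, and Gm12250, Igtp and Irgm2 on chromosome 11, where Irgm1 and Ifi47 also lie. Sequences of the 250 bases before the gene start were taken from RefSeq (GRCm38.p6), which had an entry for 6 of the 9 members (Gbp2, Gbp3, Irgm1, Irgm2, Igtp and Ifi47). They are shown because the genes moved together on these arrays and because the factors of interferon signalling bind short motifs near gene starts. 2 motifs were searched. The core of an interferon-response element was GAAA, any 2 bases and GAAA, on either strand (TTTC, any 2 bases and TTTC where it lies on the other strand), and the gamma-activated site was TTC, any 3 bases and GAA, which reads the same on both strands. Capitals mark the fixed letters of each match in the lines that follow, each written 5′ to 3′ along its gene and ending at the base before the start.
Gbp2 lies at chr3:142620413-142620662, plus strand, Gbp3 at chr3:142559794-142560043, plus strand, Irgm1 at chr11:48871421-48871670, minus strand, Irgm2 at chr11:58214727-58214976, plus strand, and Igtp at chr11:58199306-58199555, plus strand.
Gbp2: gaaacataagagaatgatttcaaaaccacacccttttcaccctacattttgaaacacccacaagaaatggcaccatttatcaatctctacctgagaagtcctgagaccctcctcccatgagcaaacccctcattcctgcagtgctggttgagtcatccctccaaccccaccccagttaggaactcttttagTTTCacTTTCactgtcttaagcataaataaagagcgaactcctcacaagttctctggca
Gbp3: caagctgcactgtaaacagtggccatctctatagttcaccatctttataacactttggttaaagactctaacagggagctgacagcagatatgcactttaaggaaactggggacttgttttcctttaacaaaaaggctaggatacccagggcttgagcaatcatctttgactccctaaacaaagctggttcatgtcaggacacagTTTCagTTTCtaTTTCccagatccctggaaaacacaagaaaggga
Irgm1: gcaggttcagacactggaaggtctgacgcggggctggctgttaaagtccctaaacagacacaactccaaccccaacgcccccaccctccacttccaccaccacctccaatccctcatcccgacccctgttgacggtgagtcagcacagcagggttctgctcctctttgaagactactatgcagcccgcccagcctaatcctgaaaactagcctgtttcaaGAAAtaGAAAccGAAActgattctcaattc
Irgm2: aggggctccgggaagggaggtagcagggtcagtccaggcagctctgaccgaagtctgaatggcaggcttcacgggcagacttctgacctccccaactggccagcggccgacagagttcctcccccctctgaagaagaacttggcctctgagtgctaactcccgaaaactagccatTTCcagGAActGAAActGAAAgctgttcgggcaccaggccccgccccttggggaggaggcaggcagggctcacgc
Igtp: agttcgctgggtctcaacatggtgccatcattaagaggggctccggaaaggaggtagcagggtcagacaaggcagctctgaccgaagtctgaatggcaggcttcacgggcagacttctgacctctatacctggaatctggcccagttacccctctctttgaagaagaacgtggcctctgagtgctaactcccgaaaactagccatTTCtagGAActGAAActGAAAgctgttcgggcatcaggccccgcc

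The interferon-response core was found in 5 of the 6 members' genes, or 5 of their 7 promoter entries (71.4%), against 2.98% of all 32851 entries. In Gbp2 it began 59 bases before the start and in Gbp3 at 45 and again at 39 bases, as overlapping matches, on the strand opposite to the gene. In Irgm1 it lay on the gene's strand as overlapping matches at 30 and 24 bases. The first of 2 Gbp3 entries is shown, and the other Gbp3 entry and the Ifi47 entry held no match to either motif. The gamma-activated site was found in Irgm2 and Igtp (28.6% of the members' entries), against 7.02% of all entries. In both genes it was followed by the interferon-response core 11 bases further on, at 75 and 64 bases before the start in Irgm2 and at 45 and 34 bases in Igtp. Only 5 of the 32851 entries (0.0152%) had that layout on the gene's strand, and the other 3 were Tgtp1, Tgtp2 and Gm12185, of which Tgtp1 and Tgtp2 encode T-cell-specific GTPases of the same family. This layout was picked out after the sequences were seen. The 40 bases around it are shown for the 4 named GTPases, since they show how far the copies agree; the stretches lie at chr11:58214892-58214931, plus strand for Irgm2, chr11:58199501-58199540, plus strand for Igtp, chr11:48992305-48992344, minus strand for Tgtp1, and chr11:49064264-49064303, minus strand for Tgtp2.
Irgm2: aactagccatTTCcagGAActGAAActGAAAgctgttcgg
Igtp: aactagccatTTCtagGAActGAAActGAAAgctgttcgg
Tgtp1: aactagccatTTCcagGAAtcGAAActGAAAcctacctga
Tgtp2: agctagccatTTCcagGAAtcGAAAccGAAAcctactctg

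Irgm2 and Igtp were identical at 39 of these 40 bases, Tgtp1 and Tgtp2 at 34, and Irgm2 and Tgtp1 at 32. A match is a description of letters and was not tested as a binding site. Of the guanylate-binding protein genes next to the members, Gbp2b, Gbp5 and Gbp7 each held the interferon-response core on the opposite strand, at 137, 165 and 53 bases, and Gbp5 and Gbp7 also held 2 gamma-activated sites each. Of all 9 other GTPases with an entry, 6 held the core and 5 the gamma-activated site. Gm5431, 9930111J21Rik1 and 9930111J21Rik2 held no match to either motif.

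**Figure D1:**
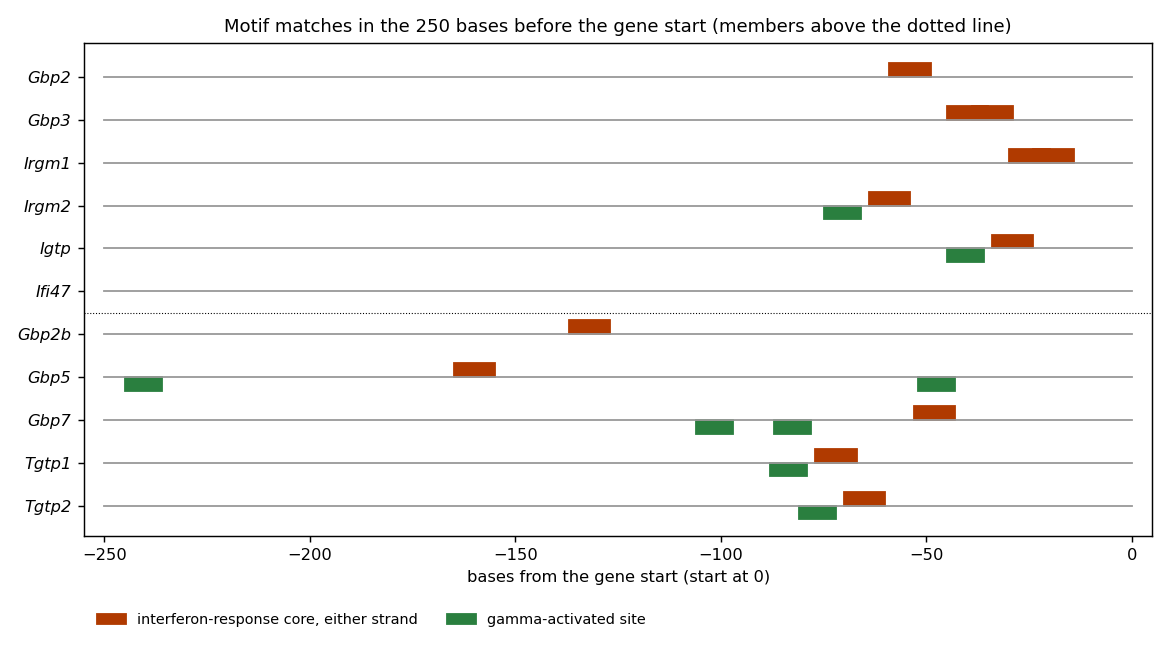
Matches to the interferon-response core (upper boxes) and the gamma-activated site (lower boxes) by distance in bases from the gene start, for the 6 members with an entry and for 5 other GTPases. These 5 were picked from 9 other GTPases with an entry, and all 5 have a match. In 5 of 6 members the core lies within 64 bases of the start, and Ifi47 has no match.

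LPS was followed by lower levels of the GTPases, in control cells for 3 of the 9 (14.9% of all features were lower there) and in cells labelled fld for all 9 (18.0% of all features). The count of 3 fell to 1 without any of 3 single arrays. Without LPS, all 9 had a higher mean in cells labelled fld than in control cells, and 0 of these differences passed the adjusted threshold. Iigp1 had the largest change of the 9, 8.04-fold lower with LPS in control cells and 10.9-fold lower in cells labelled fld. After LPS the differences between genotypes lay between -0.44 and 0.14 on the log2 scale, and 0 passed. In every member the highest of the 4 group means was that of fld untreated. The next highest was control LPS in Gbp3 and Gbp4 and control untreated in the other 7. Control LPS was the lowest in Iigp1, Irgm1 and Irgm2, and fld LPS in the other 6, but the 2 LPS groups overlapped in all 9.

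As an example of the guanylate-binding proteins, the mean level of Gbp2 was 3.64 ± 0.60 in control untreated, 2.64 ± 0.41 in control LPS, 4.92 ± 0.30 in fld untreated and 2.57 ± 0.76 in fld LPS (SD, n = 4 in each). For the effector Iigp1 the means in the same order were 3.18 ± 0.74, 0.17 ± 0.48, 3.74 ± 0.47 and 0.30 ± 1.57 (SD, n = 4 in each). For the regulator Irgm1 they were 3.78 ± 0.45, 3.45 ± 0.26, 4.50 ± 0.19 and 3.58 ± 0.91 (SD, n = 4 in each). In these 3 genes the spread was widest in fld LPS.

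**Figure D2:**
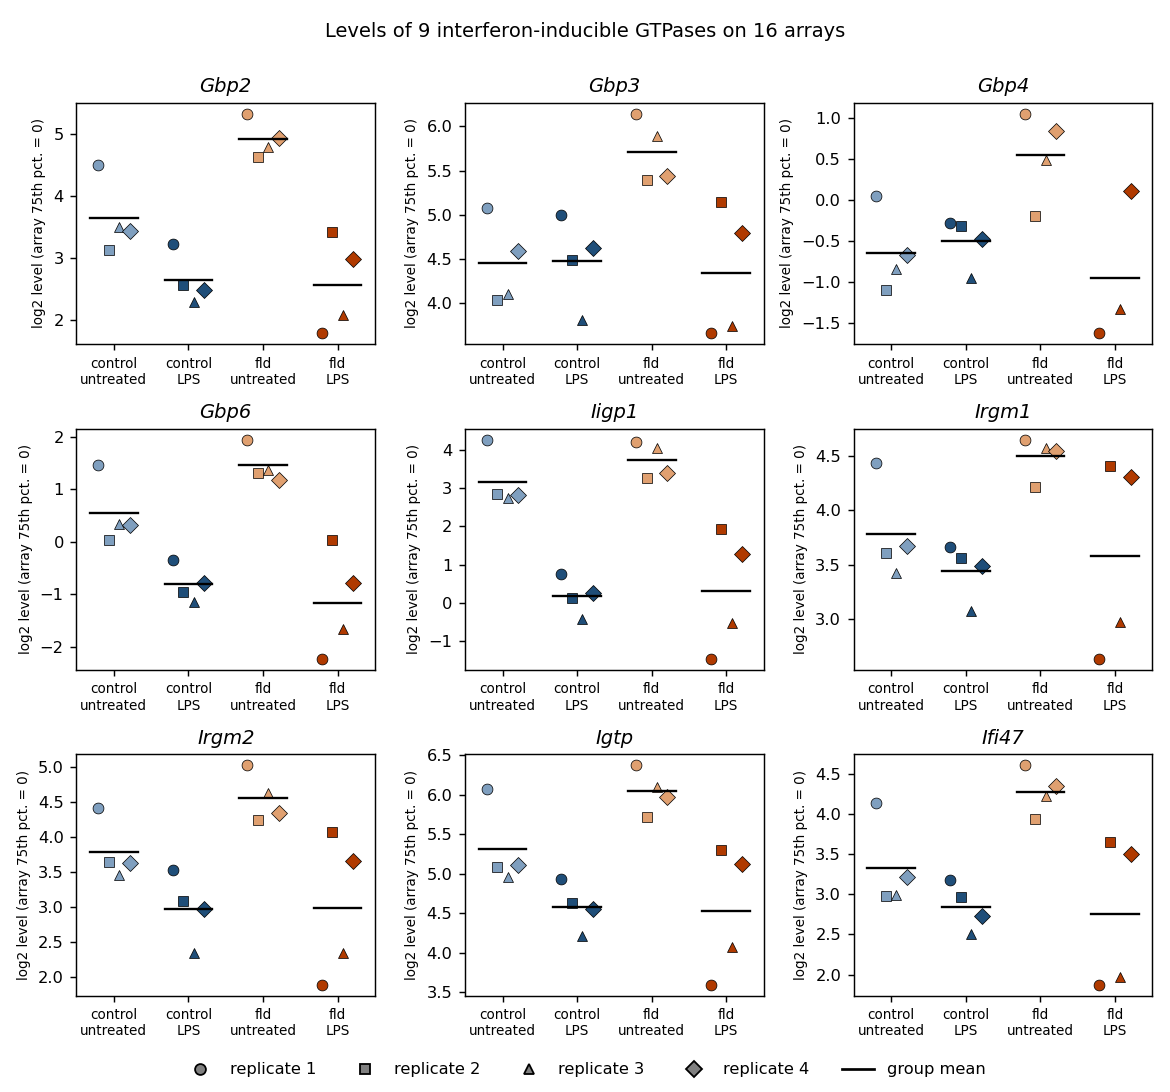
log2 levels of the 9 GTPases on the 16 arrays (array 75th percentile at 0), by group, with a symbol per replicate number and a line at the group mean. The fld untreated mean is the highest in each panel, and fld LPS replicates 1 and 3 lie below replicates 2 and 4; Gbp4 has 3 fld LPS values.

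The first comparison asks how control macrophages changed with LPS. Of the 9 members, 3 (Iigp1, Gbp6 and Gbp2) were lower with LPS at an adjusted p under 0.05 in limma, and 0 were higher. Over all 17465 features, 14.9% were lower and 14.5% higher by the same rule. The median change of the members was -0.73, against 0.03 over all features. Iigp1 levels were 4.28, 2.86, 2.74 and 2.82 in control untreated replicates 1 to 4, and 0.74, 0.12, -0.43 and 0.25 in control LPS replicates 1 to 4. The groups did not overlap, and the change was -3.01 (SE 0.60, adjusted p = 0.0015 in limma). Iigp1 is the effector that marks parasite vacuoles for rupture. Gbp6 levels were 1.47, 0.04, 0.34 and 0.32 without LPS and -0.35, -0.95, -1.15 and -0.77 with it. These groups did not overlap either, and Gbp6 fell by 1.35 (SE 0.41, adjusted p = 0.022 in limma).

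Gbp2, which is recruited to vacuoles of Toxoplasma, had levels of 4.50, 3.13, 3.50 and 3.43 without LPS and 3.23, 2.57, 2.28 and 2.49 with it. The highest LPS array lay above the lowest untreated array, and Gbp2 fell by 1.0 (SE 0.35, adjusted p = 0.046 in limma). The regulators were lower on average and did not pass. Igtp levels were 6.08, 5.09, 4.96 and 5.11 without LPS and 4.93, 4.63, 4.21 and 4.55 with it, groups that did not overlap (change -0.73, SE 0.34, adjusted p = 0.12 in limma). Irgm2 levels were 4.41, 3.63, 3.45 and 3.62 without LPS and 3.52, 3.07, 2.34 and 2.96 with it, overlapping at 1 LPS array (change -0.80, adjusted p = 0.16 in limma). Irgm1 levels were 4.44, 3.61, 3.42 and 3.67 without LPS and 3.66, 3.56, 3.08 and 3.49 with it, and all but the lowest LPS array lay within the untreated range (change -0.34).

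Ifi47 levels were 4.13, 2.98, 2.99 and 3.21 without LPS and 3.18, 2.97, 2.51 and 2.73 with it (change -0.48). Here too 1 LPS array lay above the lowest untreated one. Gbp3 and Gbp4, neighbours of other members in their clusters, showed no shift on average. Gbp3 levels were 5.08, 4.03, 4.11 and 4.59 without LPS and 5.00, 4.48, 3.81 and 4.63 with it (change 0.03, interval -0.72 to 0.77). Gbp4 levels were 0.05, -1.10, -0.84 and -0.67 without LPS and -0.27, -0.31, -0.95 and -0.47 with it (change 0.14, interval -0.65 to 0.93). The groups overlapped in both genes, with 1 Gbp3 LPS array below the untreated range. In all, 3 members had groups that did not overlap, all lower with LPS, and 16.6% of all features did so in that direction. The call for Iigp1 was kept in each alternative. The count of 3 became 1, with Iigp1 left, without control untreated replicate 1, without control LPS replicate 2, or without control LPS replicate 3, and it became 1 with another background correction (normexp). The Gbp2 call alone was lost without control untreated replicate 3 or 4, control LPS replicate 4, any 1 fld untreated array, or both arrays labelled fld replicate 4 (adjusted p = 0.051 in limma for the last).

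The second comparison asks the same of cells labelled fld. All 9 members were lower with LPS, from -0.91 in Irgm1 to -3.44 in Iigp1. Over all features 18.0% were lower and 21.6% higher, and the medians were -1.53 for the members and 0.06 for all features. The share of higher among all called features was 54.6% here and 29.6% when arrays were scaled on their median, which moved the median of all features to -0.18; the members had changes between -1.16 and -3.69 on that scale and were all called lower. Of the 9, 7 had groups that did not overlap, and 16.7% of all features did so in that direction. Irgm1 and Gbp4 overlapped.

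Iigp1 levels were 4.22, 3.27, 4.07 and 3.41 in fld untreated replicates 1 to 4 and -1.48, 1.93, -0.54 and 1.28 in fld LPS replicates 1 to 4. All LPS arrays lay below all untreated arrays, with a spread among LPS arrays of 3.40 (SE of the change 0.60, adjusted p = 0.00048 in limma). Among the guanylate-binding proteins, Gbp6 levels were 1.95, 1.32, 1.37 and 1.18 without LPS and -2.23, 0.04, -1.66 and -0.79 with it, a change of -2.61 (SE 0.41, adjusted p = 0.00022 in limma). Gbp2 levels were 5.33, 4.63, 4.79 and 4.93 without LPS and 1.79, 3.41, 2.08 and 2.99 with it, a change of -2.35 (SE 0.35, adjusted p = 0.00015 in limma). In both genes the LPS arrays were all below the untreated ones.

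Gbp3, whose level did not pass the test in control cells, had levels of 6.14, 5.40, 5.89 and 5.43 without LPS and 3.66, 5.15, 3.74 and 4.80 with it in cells labelled fld. The change was -1.38 (SE 0.35, adjusted p = 0.0067 in limma). Gbp4 levels were 1.05, -0.19, 0.49 and 0.84 without LPS and -1.62, -1.32 and 0.11 in LPS replicates 1, 3 and 4. The Gbp4 spot on fld LPS replicate 2 had a background outlier flag and was left out, at a level of 0.37, so the change of -1.49 (SE 0.40, adjusted p = 0.0095 in limma) rests on 3 LPS arrays.

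The regulators and Ifi47 were also lower, Irgm1 by the least of the 9. Igtp, also called Irgm3, had levels of 6.37, 5.72, 6.10 and 5.98 without LPS and 3.60, 5.30, 4.08 and 5.12 with it (change -1.52, SE 0.34, adjusted p = 0.0031 in limma). Irgm2 levels were 5.02, 4.23, 4.62 and 4.33 without LPS and 1.89, 4.07, 2.34 and 3.66 with it (change -1.56, SE 0.41, adjusted p = 0.0081 in limma). In both, every LPS array was below every untreated array. Ifi47, an effector like Iigp1, had levels of 4.60, 3.93, 4.22 and 4.35 without LPS and 1.88, 3.65, 1.97 and 3.50 with it (change -1.53, SE 0.38, adjusted p = 0.0058 in limma). Irgm1, whose loss in mice impairs control of mycobacteria, had levels of 4.65, 4.21, 4.58 and 4.55 without LPS and 2.64, 4.41, 2.98 and 4.31 with it. LPS replicates 2 and 4 of Irgm1 lay within the untreated range, and the change of -0.91 (SE 0.34) passed narrowly, at an adjusted p of 0.047 in limma. The other Irgm1 probe gave -0.99 (SE 0.32, adjusted p = 0.024 in limma, over 25534 probes). The Irgm1 call was lost with normexp, as was that of Gbp4, and Irgm1 was also lost in the fit on only the fld arrays and without 11 of the 16 arrays in turn, where its change ran from -1.19 to -0.60. Those 11 were control untreated replicates 2 and 4, control LPS replicates 1, 2 and 4, fld LPS replicates 1 and 3, and the 4 fld untreated arrays. Without both arrays labelled fld replicate 4, all 9 members were called lower.

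**Figure D3:**
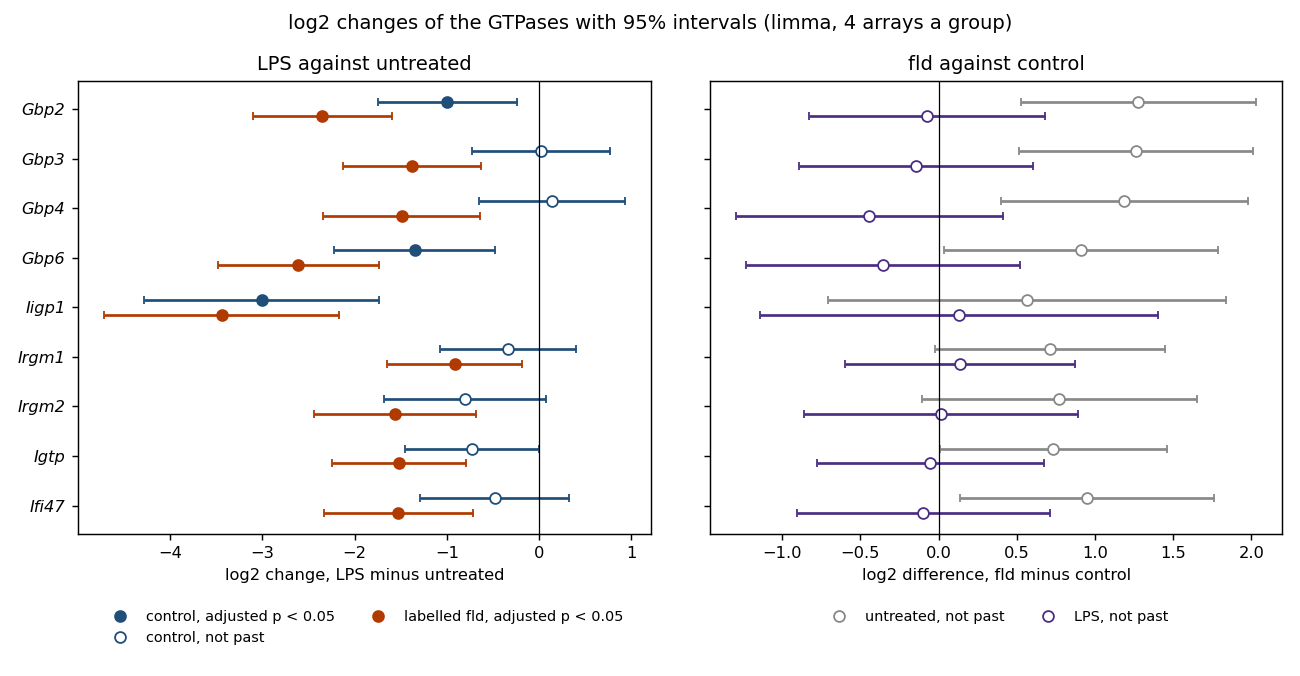
log2 changes of each GTPase with 95% intervals from limma, for LPS against untreated in each genotype (left) and fld against control at each treatment (right). Filled points passed an adjusted p of 0.05: 3 of 9 in control cells and 9 of 9 in cells labelled fld on the left, 0 on the right; Gbp4 in fld LPS rests on 3 arrays.

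The third comparison sets cells labelled fld against control cells without LPS. All 9 members had a higher mean in cells labelled fld, by 0.57 to 1.28, and 0 passed the adjusted threshold in limma. Of all features, 4.91% were higher and 0.218% lower, so the background itself leaned to higher values. At an unadjusted p under 0.05, 6 members passed, against 18.5% of all features in either direction. Gbp2 and Gbp3 were nearest to the threshold: Gbp2 was 2.43-fold higher (log2 difference 1.28, SE 0.35, adjusted p = 0.0501 in limma) and Gbp3 2.40-fold higher (1.26, SE 0.35, adjusted p = 0.052 in limma). In these 2 members all 4 fld arrays lay above all 4 control arrays, as did 13.3% of all features. Gbp4 differed by 1.19 (adjusted p = 0.082 in limma), Ifi47 by 0.95 and Gbp6 by 0.91, with fld arrays above the highest control array in 3, 3 and 1 of 4. Igtp, Irgm2 and Irgm1 differed by 0.73, 0.77 and 0.71, and Iigp1 by 0.57 (interval -0.71 to 1.84).

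Control untreated replicate 1 was the highest of its group in all 9 members. Without it, Gbp2, Gbp3 and Gbp4 passed, and the same 3 passed without fld LPS replicate 4, with array weights and in a fit on only the untreated arrays. Calls rose over all 17465 features too, from 857 higher in the main fit. They were 923 without control untreated replicate 1, 1526 without fld LPS replicate 4, 2041 with array weights and 1612 with only the untreated arrays. Gbp2 and Gbp3 passed without control LPS replicate 3, fld LPS replicate 1 or fld LPS replicate 2, Gbp2 without control LPS replicate 1, and Gbp3 without fld LPS replicate 3. Without both arrays labelled fld replicate 4, 0 passed, and Gbp2 differed by 1.27 (adjusted p = 0.074 in limma).

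With LPS, the genotypes were not distinguished in any member. Differences of fld LPS from control LPS ran from -0.44 in Gbp4 to 0.14 in Irgm1, 6 of 9 of them below 0, with adjusted p-values of 0.55 to 0.99 in limma and 0 members at an unadjusted p under 0.05. Over all features 16.1% were higher and 0.916% lower by the adjusted rule, and 26.6% had an unadjusted p under 0.05. The groups overlapped in 9 of 9 members, whereas they lay apart in 17.7% of all features with fld higher and in 2.60% with fld lower. Intervals were wide: -0.83 to 0.68 in Gbp2 and -1.14 to 1.40 in Iigp1. Scaling on the median moved the median of all features to -0.37 and the share of higher among called features from 94.6% to 23.6%. On that scale Gbp4 was called lower (-0.86, adjusted p = 0.042 in limma), as were 6451 of 17465 features. The differences of Iigp1, Irgm1 and Irgm2, above 0 in the main scaling, were below 0 there. The Gbp4 differences rest on 3 fld LPS arrays, without the flagged spot of replicate 2 (0.37), which lay above the 3 kept. In the authors' deposited table, also scaled on the median but with that spot kept, Gbp4 was not called.

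The difference between the LPS responses was tested directly. All 9 estimates were below 0, from -0.44 in Iigp1 to -1.63 in Gbp4, which is a larger fall in cells labelled fld, and 0 passed, with adjusted p-values of 0.34 to 0.91 in limma. The Gbp4 estimate rests on 3 fld LPS arrays, without the flagged spot of replicate 2 (0.37), which lay above the 3 kept. Over all features 0 were called, 9.33% had an unadjusted p under 0.05, and 4 members did so (Gbp2, Gbp3, Gbp4 and Gbp6). A difference in LPS response between genotypes was therefore not shown for any member at this number of arrays. The comparisons share arrays: the fall with LPS in cells labelled fld and the higher levels without LPS rest on the same 4 fld untreated arrays.

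Within groups, the 9 genes largely rose and fell together from array to array. In fld LPS, replicates 1 and 3 were low and replicates 2 and 4 high in every member measured there. The gap between the lower of replicates 2 and 4 and the higher of replicates 1 and 3 was 0.87 in Gbp6, 1.33 in Irgm1 and 1.81 in Iigp1. Against the fld untreated mean, Irgm1 differed by -1.86 and -1.52 in replicates 1 and 3 and by -0.090 and -0.19 in replicates 2 and 4. The SD of members in fld LPS was 0.75 to 1.58 (n = 4, and 3 in Gbp4), with a median of 0.92, against a median SD of 0.26 over all features there. Only 3% of features had an SD above the members' median. The members' median SD was 0.52 in control untreated, 0.34 in control LPS and 0.34 in fld untreated, and 7.9%, 20.9% and 18.4% of features were above it there.

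Other values are given beside this pattern. fld LPS replicates 2 and 4 had the lowest 75th percentiles of the 16 arrays. The summed level of 11 T and NK cell markers (linear, array 75th percentile at 1) was 3.50 and 6.13 on replicates 2 and 4 and 2.14 and 1.75 on replicates 1 and 3, against 1.11 to 2.65 over the other 12 arrays. Of the 12 T and NK cell markers tested, 4 were higher in fld LPS than in control LPS and 0 lower, beside 16.1% and 0.916% of all features. The summed level of 6 macrophage markers without missing values was 66.2 and 33.2 on replicates 2 and 4 and 53.1 and 56.3 on replicates 1 and 3. This sum of 6 did not follow the members' order. That sum was 115 to 166 in control untreated and 146 to 157 in fld untreated, and 47.0 to 58.6 in control LPS. By the test, 2 of 10 macrophage markers were lower and 1 higher with LPS in control cells, 5 lower and 1 higher in cells labelled fld, and 0 differed between genotypes. Over all features, 14.9% were lower and 14.5% higher with LPS in control cells, and 18.0% and 21.6% in cells labelled fld. Csf1r was 3.47 and 1.87 on fld LPS replicates 2 and 4 and 4.37 and 4.56 on replicates 1 and 3. Adgre1, not in the sum because of a missing value, was 5.29 and 4.07 on replicates 2 and 4 and 5.96 and 6.14 on replicates 1 and 3. Both genes were lower on the 2 arrays where the members were higher. The summed level of 3 neutrophil markers was 18.8 to 26.6 in fld LPS, 8.95 to 15.8 in control LPS and at most 2.17 without LPS; the neutrophil markers Retnlg, Ngp, Ltf, Elane and Cxcr2 were not kept. The summed level of 7 B cell markers was 55.4 to 80.5 in fld LPS, 74.1 to 83.1 in control LPS and 81.3 to 146 without LPS. Sums of 5 dendritic cell markers were 5.18 to 6.26 without LPS and 6.57 to 10.6 with it. Sums of 8 mesothelial or fibroblast markers were 0.712 to 1.31 in control LPS and 1.84 to 3.01 in fld LPS, and those of 7 mast cell markers overlapped between all groups, at 15.4 to 129. The part of these values in the members' levels was not tested. A fit without fld LPS replicates 2 and 4 was chosen after seeing the data and by their 75th percentiles. The members were highest on those 2 arrays in that group. A larger fall and a smaller spread, which enters every comparison, were therefore fixed by leaving them out. All 9 members were then called lower with LPS in cells labelled fld, at -1.69 in Irgm1 and -4.75 in Iigp1, beside 2413 of 17454 features. Gbp2, Gbp3, Gbp4, Irgm1 and Ifi47 were called higher in untreated fld than in untreated control cells, beside 1553 of 17454 features.

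In the other 3 groups the members shared their highest array, but not their whole order. Replicate 1 was the highest array for 9 of 9 members in control untreated, in control LPS and in fld untreated, and replicate 3 was the lowest for 9 of 9 in control LPS. The lowest array in control untreated was replicate 2 for 5 members and replicate 3 for 4. In fld untreated the lowest was replicate 2 for 8 members and replicate 4 for 1. The mean level of 8 members without Gbp4 was 4.30 on control untreated replicate 1 and 3.17 to 3.35 on the other 3 arrays of that group. These shared positions are a description of arrays.

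**Figure D4:**
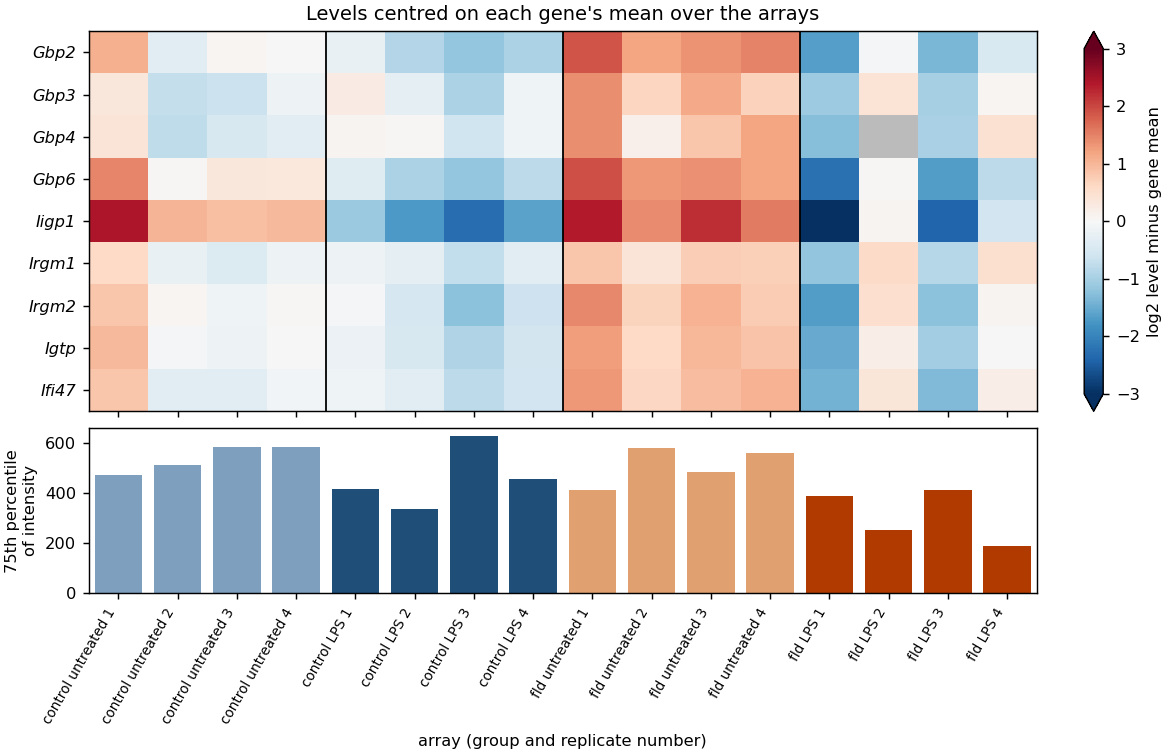
Upper panel, level of each GTPase on each array minus the gene's mean over the arrays (log2, colour scale limited to -3 and 3, grey for the left-out Gbp4 spot). Lower panel, each array's 75th percentile of intensity, which is lowest on fld LPS replicates 2 (251) and 4 (189), the arrays where the members are highest in that group.

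Relatives of the members were mostly lower with LPS in cells labelled fld. Of 20 on a list of relatives, 12 had a probe and 11 were tested. With LPS, 2 of the 11 were lower in control cells (Mx1 and Gm5431) and 10 in cells labelled fld, and 0 were higher in either. Over all features, 14.9% were lower in control cells and 18.0% in cells labelled fld, so the count in control cells was near the background. The median changes of the 11 were -0.71 and -1.54, beside -0.73 and -1.53 for the members. Mx1, an antiviral dynamin-like GTPase, changed by -1.95 (SE 0.51, adjusted p = 0.0092 in limma) in control cells and -2.62 (SE 0.51, adjusted p = 0.0011 in limma) in cells labelled fld. Gm5431, a predicted immunity-related GTPase next to Irgm1, was well above background on 4 of 4 arrays in each untreated group and on 1 of 4 in each LPS group. It was kept through its untreated levels, so its 2 calls are bound to the filter and no fold is given.

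Gbp2b, the neighbour of Gbp2, changed by -2.19 in cells labelled fld and -0.74 in control cells (adjusted p = 0.00085 and 0.22 in limma, control LPS on 3 arrays). Gbp5, which promotes inflammasome assembly, changed by -1.84 and -0.29 in the same order, and Gbp7 by -1.50 and -0.45. Tgtp1, whose start shares the layout of Irgm2 and Igtp, changed by -1.64 (adjusted p = 0.021 in limma) in cells labelled fld and -0.50 (adjusted p = 0.51) in control cells. Another Tgtp1 probe, well above background on 16 of 16 arrays, changed by -0.03 (adjusted p = 0.94 in limma) in cells labelled fld, so the 2 probes disagree. Gvin1, a very large GTPase, was the 1 of 11 not called in cells labelled fld (-0.64, adjusted p = 0.071 in limma). Its 2 other probes changed by -1.24 and -1.12 and were called, so that exception rests on the probe. Without LPS, 0 of the 11 were called between genotypes. Gbp5, Gbp2b and Gbp7 differed by 1.46, 1.32 and 0.95 there, with adjusted p-values of 0.071, 0.077 and 0.062 in limma.

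Upstream, genes of interferon signalling were called in both directions. Of 19 interferons, receptors and signal transducers, 7 were higher and 2 lower with LPS in control cells, and 6 were higher and 5 lower in cells labelled fld. Over all features, 14.5% were higher and 14.9% lower in control cells, and 21.6% and 18.0% in cells labelled fld. Jak2, the kinase of the interferon-gamma receptor, was higher by 2.11 and 1.56, and the feedback inhibitor Socs3 by 2.37 and 2.54. Irf1, a transcription factor of interferon-stimulated genes, fell by 0.84 (SE 0.18, adjusted p = 0.0021 in limma) in control cells and by 1.53 (SE 0.18, adjusted p = 1.5e-05 in limma) in cells labelled fld. Irf1 levels were 5.79, 5.09, 5.46 and 5.31 in control untreated and 4.72, 4.56, 4.38 and 4.60 in control LPS, without overlap. In cells labelled fld they were 6.40, 5.96, 5.89 and 5.77 without LPS and 4.23, 4.88, 4.48 and 4.32 with it, also without overlap.

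Socs1, a suppressor of JAK signalling, was higher with LPS by 1.29 (adjusted p = 0.0018 in limma) in control cells and changed by 0.02 in cells labelled fld, where it was higher than in control cells without LPS (0.94, SE 0.24, adjusted p = 0.035 in limma). Socs1 was the 1 gene of the 19 called between untreated genotypes, where 4.91% of all features were higher. That count of 1 ran from 0 to 3 over the alternatives. Ifnb1, interferon-beta, was measured above background on 16 of 16 arrays. It varied widely, from -3.79 to -1.29 in control untreated and from -3.64 to -0.94 in fld LPS, and its changes with LPS were -0.84 in both genotypes (SE 0.67). Ifng, interferon-gamma, was well above background on all 4 control LPS arrays, on 1 control untreated array and on 0 of 8 arrays labelled fld, so no fold is given. It was kept only through control LPS, and the lowest level counted as well above background differed by array. That limit was -4.99, -4.29, -4.76 and -3.75 on fld LPS replicates 1 to 4 and -5.39 to -4.69 in control LPS. Ifng was at -4.34 on fld LPS replicate 2, not counted, and at -4.72 on control LPS replicate 1, counted. These counts therefore show no genotype difference.

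Among 27 other interferon-stimulated genes, 3 were lower and 1 higher with LPS in control cells, and 12 lower and 1 higher in cells labelled fld. Over all features, 14.9% were lower and 14.5% higher in control cells, and 18.0% and 21.6% in cells labelled fld. The counts in control cells were thus not above the background. Medians of the list were -0.27 and -0.82. Ifit2, which binds viral RNA complexes, had the largest changes of the list, -2.79 and -3.71, and Cd274 (PD-L1) was higher in both, by 1.49 and 1.05. Cxcl10, a chemokine for activated T cells, changed by -3.41 (adjusted p = 0.0069 in limma) in cells labelled fld and by -2.19 (adjusted p = 0.073) in control cells. Cxcl9, a chemokine induced by interferon-gamma, was well above background on 4 of 4 fld untreated arrays, 2 control untreated arrays and 1 array of each LPS group. It was called higher in untreated cells labelled fld and lower with LPS there, and the lower call is among the 12. Cxcl9 was kept only through its fld untreated levels, so both calls are bound to the filter and no fold is given. The count of 12 was 5 with normexp, 7 in a fit on only the fld arrays and 26 without fld LPS replicates 2 and 4, and it was 8 to 17 with single arrays left out (8 without fld LPS replicate 1 or 3). Over all features, 824 were lower with normexp, 2544 in the fit on only the fld arrays and 2413 without fld LPS replicates 2 and 4.

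Of 12 antigen presentation genes, 1 was lower with LPS in control cells (Psmb9, -0.61) and 6 in cells labelled fld. These were the immunoproteasome subunits Psmb8, Psmb9 and Psmb10 (-1.07, -1.24 and -1.16) and the peptide loading genes Tap1, Tap2 and Tapbp (-0.77, -0.58 and -0.77). Over all features, 14.9% were lower in control cells and 18.0% in cells labelled fld. The class II genes H2-Aa, H2-Ab1 and H2-Eb1 had changes of 0.03 to 0.04 in cells labelled fld and were not called. Psmb10 was higher in untreated cells labelled fld (0.78, adjusted p = 0.035 in limma), as were 4.91% of all features. That count of 1 was kept in 4 of 13 alternatives and in 10 of 16 fits with 1 array left out.

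**Figure D5:**
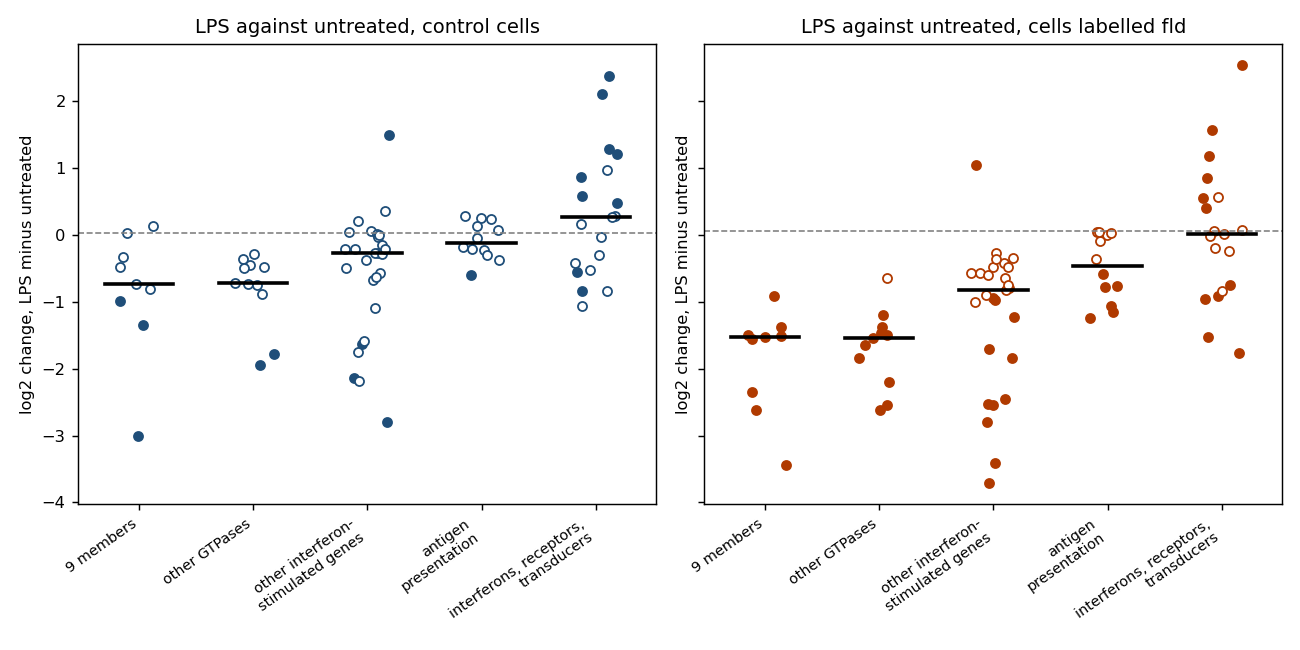
log2 change with LPS in control cells (left) and in cells labelled fld (right) for the 9 members and 4 lists of related genes, 1 point a gene, filled where the adjusted p was under 0.05 in limma. Black lines are list medians (members -0.73 and -1.53) and the dashed line is the median of all features (0.03 and 0.06).

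Genes that work with these GTPases were called in both directions. Of 15 genes of the autophagy conjugation system, which places GTPases on vacuoles, 3 were higher and 3 lower with LPS in control cells, and 3 higher and 6 lower in cells labelled fld. Over all features, 14.5% were higher and 14.9% lower in control cells, and 21.6% and 18.0% in cells labelled fld. The counts in control cells were thus near the background. Atg7, the activating enzyme of that system, changed by -1.26 and -0.82, and it was also lower in untreated cells labelled fld than in control cells (-0.47, adjusted p = 0.0499 in limma). That call was kept in only 3 of 16 fits with 1 array left out. Another Atg7 probe changed with LPS by -0.72 in control cells and -0.39 in cells labelled fld (adjusted p = 0.0032 and 0.070 in limma, over 25534 probes). Between untreated genotypes that probe differed by -0.29 (adjusted p = 0.40 in limma), so both Atg7 calls in cells labelled fld rest on the probe. Of 8 genes of cytosolic sensing downstream of guanylate-binding proteins, Nlrp3 and Il1b were higher with LPS, by 1.74 and 2.46 in control cells and 1.36 and 2.07 in cells labelled fld. Pycard, the inflammasome adaptor, changed by -1.18 and -1.31, and Il18 by -1.12 and -1.53. No gene of these 6 lists was called between genotypes with LPS or in the difference of the LPS responses. Between genotypes with LPS this depends on the scaling. On the median scale, the median of all features was -0.37, and 6451 of all 17465 features were called lower. There, 10 of 12 antigen presentation genes, 10 of 15 autophagy genes, 7 of 19 signalling genes and 1 of 8 cytosolic sensing genes were called lower. The signalling and cytosolic sensing counts were not above the background.

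The features most like the members were ranked by the root mean square difference, over the 16 arrays, between a feature's centred profile and the mean centred profile of the members, among 11739 named features measured on all arrays. The 8 nearest that are no members were Nt5c3 (0.18), Usp18 (0.20), Ube2l6 (0.21), Ifi203 (0.22), Phf11d (0.24), Slfn1 (0.25), Il15ra (0.26) and Gbp8 (0.26). The members themselves lay between 0.14 (Irgm2) and 1.0 (Iigp1), and the median feature at 0.97. All points of a profile share their arrays and scaling, so likeness includes what an array does to all genes of that brightness. Nt5c3 encodes a cytosolic nucleotidase. Nt5c3 changed by -0.88 (adjusted p = 0.054 in limma) with LPS in control cells and -1.75 (adjusted p = 0.00082 in limma) in cells labelled fld, and Usp18, which removes ISG15 from proteins, by -1.06 (adjusted p = 0.11) and -1.76 (adjusted p = 0.0098 in limma). All 8 were lower with LPS in cells labelled fld by the test, and Ifi203, Slfn1 and Il15ra also in control cells. The 8 were picked for profiles near that of the members on these same arrays, so their calls and p-values are bound to the choice.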

How the data were processed

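RNA of 16 samples was read on 1-colour arrays (design 014868) with Agilent Feature Extraction 9.5.1.1, per the file headers. The deposited scanner files hold the authors' processed intensity of each spot, background-subtracted per the file headers. The deposited series table is a linear ratio, which equals the processed intensity divided by the array median (every column median at 1), with no centring by gene; it served as an alternative. Other upstream steps: not given in the sources used here.

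Processed intensity was taken to log2 minus the array's 75th percentile over spots that are no controls. Values with an outlier flag were left out (1.34%). Of 41174 probes, the 25534 that had every array of some group well above background were kept. The brightest probe stood for a gene. Names came from RefSeq accessions for 22944 probes, symbols for 6664, synonyms for 3108 and the files for 8458. The sources used here name no genome build for probe coordinates, so none is printed. limma 3.58.1 (R 4.3.3) fitted 1 mean per group over all 16 arrays, with two-sided p-values and Benjamini-Hochberg adjustment over 17465 features. The fit was tested on simulated data. The number of arrays limits the precision.

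All members are described in every comparison. From each list, up to 4 called genes with the largest changes in a comparison are named, with Ifng, Ifnb1, Irf1, Socs1, Gbp2b, Gbp5, Gbp7, Tgtp1 and Lpin1 always, and others where a count is small; some items under this rule are not reported here. Members and lists were chosen with earlier results of these data known. Alternatives changed the background correction, scaling, filter, probe rule, arrays in the fit, weights and replicate block.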

Additional observations from a re-analysis of the deposited data

Results flagged for a closer look

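In 35 sets of 4 arrays (the 9 members in the 4 groups, without Gbp4 in fld LPS), the highest or lowest array stood apart from the other 3 in 2 cases by Dixon's criterion, and chance gives about 1 in 20. Both were the highest level in control untreated, on replicate 1: Iigp1 at 4.28, with the others at 2.74 to 2.86, and Igtp at 6.08, with the others at 4.96 to 5.11. That array was the highest of its group for all 9 members.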

How the results depend on the processing

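The fall of all 9 members with LPS in cells labelled fld kept its direction in every alternative, with 7 to 9 called, and Iigp1 was called in both genotypes in each of them. Of 261 values per comparison (9 members under 29 alternatives), 0 changed sign there, 8 did in the LPS response of control cells, 0 between untreated genotypes, 40 between genotypes with LPS and 1 in the difference of the responses. The calls in control cells and between untreated genotypes depend on single arrays. With 4 arrays a group and an SE of 0.34 to 0.60, differences near 0 have no settled sign.

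In control cells, 1 member was called lower with LPS under normexp, 5 without fld LPS replicates 2 and 4 (an alternative chosen after seeing the data), and 1 to 3 when single arrays were left out. Over all features, 637 were lower there under normexp and 3015 without fld LPS replicates 2 and 4, beside 2607 in the main fit. Between untreated genotypes, the count of members called higher was 3 with only the arrays compared, 3 with array weights, 5 without fld LPS replicates 2 and 4, and 0 to 3 when single arrays were left out. Features called higher there numbered 1612 with only the arrays compared, 2041 with array weights and 1553 without fld LPS replicates 2 and 4, beside 857 in the main fit. With LPS, 1 (Gbp4) was called lower between genotypes under median scaling, but not in the authors' deposited table, which keeps the flagged Gbp4 spot. The Gbp3 change with LPS in control cells was -0.41 under normexp, -0.0175 with the local background capped, -0.12 under quantile normalization and -0.15 to 0.25 when single arrays were left out, and that of Gbp4 was -0.0145 to 0.37 when single arrays were left out.

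The difference of fld LPS from control LPS changed sign under normexp in Gbp2 (0.0279), Igtp (0.0029) and Ifi47 (0.046), and with the capped background in Irgm2 (-0.0029). Under median scaling and in the authors' deposited table it was -0.27 in Iigp1, -0.26 in Irgm1 and -0.39 in Irgm2. Without both arrays labelled fld replicate 4 it was -0.20, -0.11 and -0.21 in these 3, with array weights -0.37, -0.20 and -0.36, and without fld LPS replicates 2 and 4 -1.17, -0.64 and -0.86. When single arrays were left out it ran from -0.36 to 0.18 in Gbp2, -0.41 to 0.0824 in Gbp3, -0.75 to 0.0039 in Gbp6, -0.41 to 0.72 in Iigp1, -0.14 to 0.45 in Irgm1, -0.35 to 0.38 in Irgm2, -0.31 to 0.26 in Igtp and -0.40 to 0.19 in Ifi47. The difference of the LPS responses of Iigp1 ran from -0.98 to 0.16. The cause was not tested for any of these.

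Deviations of untreated and LPS arrays of 1 replicate number correlated at 0.16, 0.090, 0.26 and 0.089 in control cells (across 17466 features). Most control arrays, but not every one, correlated best with their own number, so pairing is not settled there. In cells labelled fld the values were -0.082, -0.085, -0.10 and 0.20, and most arrays correlated best with another number. With the replicate block, 2 members were called lower in control cells and 8 in cells labelled fld, where Irgm1 had an adjusted p of 0.055 in limma. No fit with the slide as a block could be made, since each group lay on its own slide. Over all features, normexp called 1184 and 1474 with LPS in control cells and in cells labelled fld, against 5142 and 6919, and the difference of the LPS responses had up to 14 calls (quantile normalization), 0 of them members.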
